A study of Mus musculus with 8 samples.

Results

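GFP+ cells sorted from gastrocnemius muscle were compared with GFP+ cells sorted from subcutaneous AT (SAT) of mice on chow. The comparison used 4 of the 8 RNAseq libraries of the series, and they were chosen by the tissue, diet and genotype in their labels. All mice were 8-month-old females that carried Tie2e-cre and the mTmG reporter, in which Cre switches a cell from membrane Tomato (mT) to membrane GFP (mG). The WT mice were Tie2e-cre; TERT+/+; mTmG and the KO mice were Tie2e-cre; TERTfl/fl; mTmG. Each tissue had 1 WT and 1 KO library, so the 2 libraries of a tissue also differed in genotype. Whether a library held cells of several mice, and whether muscle and SAT came from the same mouse, was not stated in the sources used here. The Tie2 promoter that drives Cre is active in endothelial cells (EC) and is also known to be active in blood cell progenitors, so mG marks a lineage and not EC alone.

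EC line every blood vessel, and their gene expression differs from organ to organ. Capillary EC of muscle and fat pass fatty acids from the blood to the tissue, using the lipase anchor Gpihbp1 and transporters such as Cd36. Arterial EC depend on Notch signalling, while the VEGF and angiopoietin receptors (Kdr, Flt1, Tek, Tie1) serve EC of all vessels. Leukocytes reach the same tissues through the blood, and neutrophils make most of their granule proteins as precursors in the bone marrow.

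Tert, the telomerase gene deleted in the KO mice, had 24 counts in the WT muscle library, 7 in KO muscle, 70 in WT SAT and 11 in KO SAT. It was lower in KO than in WT in muscle and in SAT on chow, and at 3 counts in WT and 9 in KO VAT. Its muscle over SAT ratio was not called (log2 fold change -0.94, SE 1.51, edgeR adjusted p = 0.96). The libraries held 12940511 to 18855772 counts, and 19802 to 24688 genes had a count. WT SAT had the most counts and the fewest genes: of the 17137 genes tested, 892 had no count there, against 71 to 169 in the other 3 libraries. The muscle libraries were the more alike pair, with WT and KO at least 2-fold apart in 15.6% of genes tested, against 45.8% between the SAT libraries. A number of genes had a large ratio in WT and a small or opposite one in KO.

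The 250 bases before the start of 5 genes are shown for 3 of the gene groups described: the neutrophil genes Mmp8 (chr9:7558179-7558428, plus strand) and S100a9 (chr3:90695722-90695971, minus strand), the EC genes Tek (chr4:94739039-94739288, plus strand) and Flt1 (chr5:147726012-147726261, minus strand), and the T cell gene Cd3d (chr9:44981536-44981785, plus strand). They were taken from RefSeq promoters on GRCm38.p6 and are written 5′ to 3′. Capitals mark matches on either strand to motifs of the C/EBP type, the PU.1 type or the GATA type, whose letters are given with their counts after the sequences.
Mmp8: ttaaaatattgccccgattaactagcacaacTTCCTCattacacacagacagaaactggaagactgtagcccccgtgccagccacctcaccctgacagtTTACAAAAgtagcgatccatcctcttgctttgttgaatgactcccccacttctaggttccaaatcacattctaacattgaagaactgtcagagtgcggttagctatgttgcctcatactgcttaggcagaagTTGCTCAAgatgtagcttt
S100a9: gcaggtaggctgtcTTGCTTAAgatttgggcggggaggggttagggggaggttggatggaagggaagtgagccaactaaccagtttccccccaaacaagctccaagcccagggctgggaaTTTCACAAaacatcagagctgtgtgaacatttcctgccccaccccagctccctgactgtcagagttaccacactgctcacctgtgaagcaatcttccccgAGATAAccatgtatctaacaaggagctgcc
Tek: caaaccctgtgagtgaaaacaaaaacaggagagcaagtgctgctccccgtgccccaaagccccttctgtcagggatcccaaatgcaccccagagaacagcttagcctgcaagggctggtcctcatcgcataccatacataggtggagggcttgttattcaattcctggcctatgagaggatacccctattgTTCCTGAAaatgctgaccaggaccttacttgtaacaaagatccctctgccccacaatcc
Flt1: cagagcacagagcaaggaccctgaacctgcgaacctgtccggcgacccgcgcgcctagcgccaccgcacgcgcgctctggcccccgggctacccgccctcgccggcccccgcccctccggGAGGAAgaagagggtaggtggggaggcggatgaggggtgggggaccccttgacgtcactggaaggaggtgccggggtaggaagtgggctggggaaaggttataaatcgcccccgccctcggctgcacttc
Cd3d: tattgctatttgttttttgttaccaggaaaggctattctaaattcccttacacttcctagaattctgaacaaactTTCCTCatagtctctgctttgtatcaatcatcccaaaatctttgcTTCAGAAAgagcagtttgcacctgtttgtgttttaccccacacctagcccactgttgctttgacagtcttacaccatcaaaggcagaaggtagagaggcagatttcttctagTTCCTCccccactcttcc
The PU.1 type motif GAGGAA was found before 10 of 14 neutrophil genes with an entry, 6 of 11 pan-endothelial genes, 5 of 7 T cell genes and 23.1% of all 27025 genes. The C/EBP type motif TTNNGNAA was found before 8 of the 14 neutrophil genes, 5 of the 11 pan-endothelial genes, 4 of the 7 T cell genes and 36.9% of all. The GATA type motif AGATAA was found before 2 of the 14 neutrophil genes, none of the 11 pan-endothelial genes, 1 of the 7 T cell genes and 10.3% of all. These are matches of letters, and no binding was measured here.

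Of the 17137 genes, 692 (4.04%) were called higher in muscle than in SAT and 137 (0.799%) lower, by edgeR's quasi-likelihood test with genotype as a block at an adjusted p under 0.05. Without the test, 1690 genes (9.86%) were higher in muscle by at least 2-fold in both the WT pair and the KO pair, and 812 (4.74%) were lower by as much in both. Of the called genes, 669 higher and 135 lower passed this 2-fold rule too. Counts of called members in the lists below stand beside 4.04% of all genes called higher and 0.799% lower. Another 895 genes were at least 2-fold apart in opposite directions: 684 were higher in muscle in WT and lower in KO, and 211 the reverse. The block leaves 1 residual degree of freedom, which holds any genotype difference that muscle and SAT did not share. The fit gave every gene the trended dispersion of genes at its level, so the spread behind a p is that of like genes. In a fit that drew the spread from all 6 chow libraries, with visceral AT (VAT) added, 255 genes were called higher and 35 lower. Without the block 133 were higher and 9 lower.

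**Figure D1:**
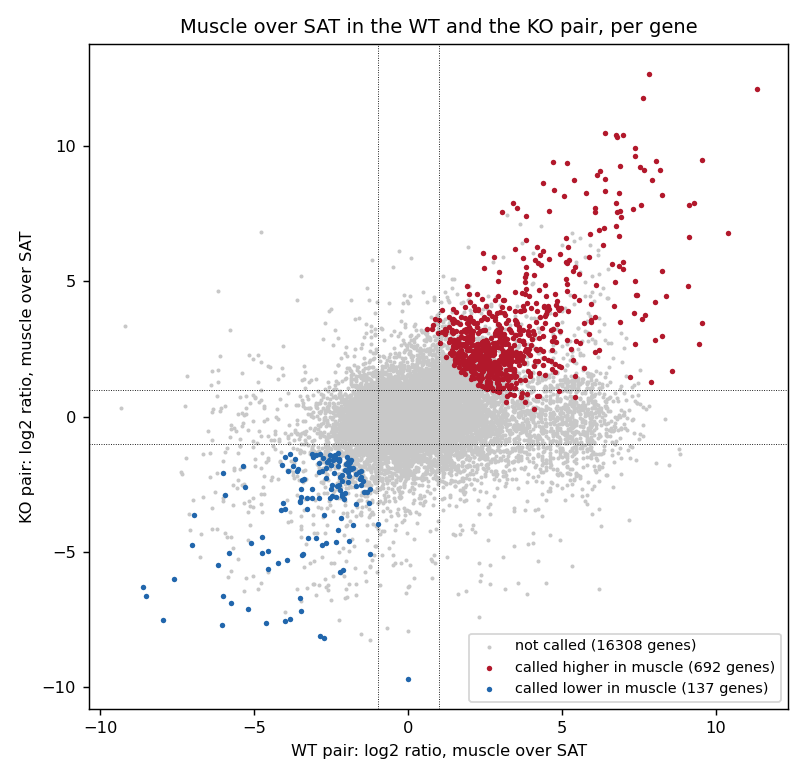
Each point is 1 of the 17137 genes tested, with the log2 ratio of muscle over SAT in the WT pair on the x axis and in the KO pair on the y axis. The 692 genes called higher (red) and 137 called lower (blue) lie where both pairs moved the same way, dotted lines mark 2-fold, and many genes spread along the x axis alone.

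EC genes were higher in muscle. All 20 pan-endothelial genes tested had a ratio above 0 in both genotypes, 18 were at least 2-fold higher in both, and 16 were called. The median log2 ratio of the list was 2.08 in the WT pair and 2.17 in the KO pair, against 0.038 and -0.0031 over all genes tested. The summed level of the list was 3150 CPM (counts per 1000000 of the library total) in WT muscle, 4440 in KO muscle, 744 in WT SAT and 1120 in KO SAT. It was 3660 and 2770 CPM in WT and KO VAT, so the muscle and VAT libraries lay close and the SAT libraries apart. In bulk samples, fewer cells of a type and less RNA per cell cannot be told apart.

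Cdh5, the VE-cadherin of EC junctions, stood at 325 CPM in WT muscle and 365 in KO muscle, against 52.0 in WT SAT and 75.1 in KO SAT (here and for all single genes, CPM scaled by TMM over the 4 libraries). Its log2 fold change was 2.46 (SE 0.624, edgeR adjusted p = 0.0034). Kdr, the main VEGF receptor, was at 274 CPM in both muscle libraries and at 25.8 and 83.3 CPM in WT and KO SAT (log2 fold change 2.56, SE 0.631, edgeR adjusted p = 0.0023). Tek, the angiopoietin receptor also known as Tie2 and the source of the Cre promoter, was at 93.9 and 120 CPM in muscle and at 15.2 and 28.5 CPM in SAT, in the order WT, KO. For each of these genes, every muscle library was above every SAT library. The largest change in the list was that of Ptprb, an EC phosphatase that acts on Tek, at 335 and 523 CPM in muscle and 23.4 and 91.9 CPM in SAT (log2 fold change 3.17, SE 0.663, edgeR adjusted p = 0.00014). Pecam1, which EC share with leukocytes and platelets, was one of 4 members not called: it was at 467 and 545 CPM in muscle and 254 and 230 CPM in SAT (log2 fold change 1.06, SE 0.628, edgeR adjusted p = 0.57). With the 6 chow libraries 9 of the 20 were called, and without the block none.

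Arterial and venous genes moved with the pan-endothelial ones. Of 14 tested, 7 rose and none fell, with medians of 2.09 in WT and 1.74 in KO. One of the 7 was Lrg1, at 189 and 184 CPM in WT and KO muscle and 46.9 and 19.5 CPM in SAT. Which cells made Lrg1 was not tested. Gja5, the connexin of arterial EC, was at 17.7 and 36.1 CPM in WT and KO muscle, and at 1.75 and 4.11 CPM in WT and KO SAT. Bmx, an arterial kinase, was at 33.7 and 36.7 CPM in muscle and 1.98 and 4.05 CPM in SAT (log2 fold change 3.62, SE 0.68, edgeR adjusted p = 1.1e-05). Sema3g and Efnb2, both arterial, and Ephb4, the venous receptor of Efnb2, also rose, with log2 fold changes of 2.79, 2.26 and 2.06. In the Notch list 4 of 14 rose and none fell: the ligands Dll4, Jag1 and Jag2 and the EC receptor Notch4, with log2 fold changes of 2.08 to 2.33. In the list of VEGF, angiopoietin and apelin genes 6 of 16 rose and none fell. The lists share called members: Kdr and Flt1 are also in the pan-endothelial list, Flt4 in the lymphatic and Dll4 in the arterial and venous. The VEGF list summed to 1200 and 1500 CPM in WT and KO muscle, 189 and 493 CPM in SAT and 1640 and 1300 CPM in VAT. The Notch list summed to 1200 and 1280 CPM in muscle, 417 and 855 CPM in SAT and 1940 and 1640 CPM in VAT. With the 6 chow libraries 2 arterial and venous genes (Bmx and Lrg1), none of the Notch list and 1 of the VEGF list were called. Only 1 of 7 lymphatic genes was called, the receptor Flt4, which blood vessel EC express as well.

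Capillary lipid genes did not all move one way. Of 15 tested, 6 rose and 1 fell, and the medians were 1.57 in WT and 1.34 in KO. Both medians were below those of the pan-endothelial list (2.08 and 2.17). The list summed to 1170 and 1450 CPM in WT and KO muscle, 391 and 663 CPM in SAT and 2590 and 3560 CPM in VAT. It was thus higher in VAT than in muscle. Timp4, a metalloproteinase inhibitor, was at 51.6 and 44.6 CPM in WT and KO muscle, against 4.83 and 5.96 CPM in SAT (log2 fold change 3.16, SE 0.615, edgeR adjusted p = 2.8e-05). The transcription factors Meox2 and Tcf15, which together drive fatty acid uptake genes in heart and muscle EC, had log2 fold changes of 2.64 and 2.57. Slc27a4, a fatty acid transporter, Aqp7, a glycerol channel, and Gpihbp1 rose by 2.35, 2.38 and 1.78 on the log2 scale. Angptl4, an inhibitor of lipoprotein lipase, went the other way. It was at 5.75 and 11.5 CPM in muscle and 16.6 and 54.5 CPM in SAT (log2 fold change -1.89, SE 0.611, edgeR adjusted p = 0.042). Fabp4 and Cd36 were at least 2-fold higher in muscle in both genotypes but were not called (edgeR adjusted p = 0.2 and 0.23). With the 6 chow libraries 4 of the list were called higher and none lower.

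Neutrophil genes showed the largest difference of all lists. All 16 were called higher in muscle and at least 2-fold higher in both genotypes, with a median log2 ratio of 6.39 in WT and 8.77 in KO. The 16 genes summed to 30600 CPM in WT muscle and 39000 CPM in KO muscle, against 352 and 116 CPM in WT and KO SAT. They summed to 994 and 880 CPM in WT and KO VAT, and to 96.2 and 126 CPM in SAT of WT and KO mice on the high-fat diet, so the 2 muscle libraries stood above the other 6. All 16 were also called with the 6 chow libraries, 15 with all 8 libraries and 14 without the block.

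The precursor granule enzymes were among the genes with the largest ratios. Elane, neutrophil elastase, was at 508 and 631 CPM in WT and KO muscle and at 2.5 and 1.1 CPM in WT and KO SAT (log2 fold change 8.38, SE 0.854, edgeR adjusted p = 1.9e-19). Mpo, myeloperoxidase, was at 1100 and 1530 CPM in muscle and at 6.64 and 1.91 CPM in SAT. Prtn3, the neighbour of Elane on chromosome 10, was at 444 and 512 CPM in muscle and at 1.8 and 1.16 CPM in SAT. Genes of later granules were as far apart. Camp, the cathelicidin, was at 1610 and 1920 CPM in muscle and 8.21 and 0.521 CPM in SAT, and Ltf, lactoferrin, at 5220 and 5270 CPM against 28.1 and 8.79 CPM. The calcium-binding S100a8 of mature neutrophils was at 3680 and 5330 CPM in muscle and 52.4 and 10.8 CPM in SAT, and Mmp8, the neutrophil collagenase, at 595 and 569 CPM against 6.98 and 1.74 CPM. The receptors Cxcr2 and Csf3r had smaller differences, with log2 fold changes of 4.37 and 3.69.

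Of the 10 genes with the largest ratio that held in both genotypes, 6 are known from granulocytes or their precursors: Olfm4, Prtn3, Fcnb, Elane, Camp and the basophil protease Prss34. Olfm4, a granule glycoprotein, had 3789 and 1896 counts in WT and KO muscle and 1 and 0 counts in WT and KO SAT, which in the KO pair is at least 793-fold higher. Fcnb, ficolin B, had 2738 and 2745 counts against 12 and 0. The other 4 were Ceacam10 with 284 and 274 counts in muscle and 0 and 1 in SAT, Mogat2, which had 385 and 301 counts in muscle and none in SAT, Scrg1 with 155 and 124 counts against none, and Car1, an erythroid carbonic anhydrase, with 148 and 237 counts against none. Mogat2 had no count in the VAT and high-fat diet libraries either.

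Genes of erythroid cells, eosinophils and basophils were also higher in muscle. Whether such cells came from marrow, blood or the muscle itself was not tested. In the list of erythroid and platelet genes 5 of 10 rose and none fell. They include Alas2, the enzyme of haem synthesis, and the globins Hba-a1, Hba-a2 and Hbb-bs. Hba-a2 and Hbb-bs overlapped between the tissues, with KO muscle at 2.18 and 28.7 CPM and WT SAT at 2.33 and 35.3 CPM. Hba-a1 was at 402 CPM in WT muscle and 67.5 CPM in KO muscle, against 26.4 and 6.59 CPM in WT and KO SAT (log2 fold change 3.65, SE 0.63, edgeR adjusted p = 1.1e-06). It is a near copy of Hba-a2, so the split of reads between the pair is uncertain. No member of the erythroid and platelet list was called with the 6 chow libraries. Eosinophil and basophil genes rose, with Prg2, eosinophil major basic protein, at 91.9 and 115 CPM in muscle and 1.11 and 1.39 CPM in SAT, and Epx, eosinophil peroxidase, at 30.2 and 29.8 CPM against 1.11 and 0.0578 CPM. Hdc, which makes histamine, was at 605 and 596 CPM against 5.88 and 34.9 CPM.

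Some genes of marrow precursors and bone lay outside the lists and were picked after their values were seen. Ms4a3, of granulocyte and monocyte precursors, had 1009 and 1056 counts in WT and KO muscle and 6 in each SAT library. Rag1, of lymphocyte precursors, had 412 and 568 counts against 2 and 31. Igll1, the surrogate light chain of B cell precursors, had 116 and 202 counts against 8 and 5. Ibsp, a bone matrix protein, had 42 and 53 counts against none, and Col2a1, the cartilage collagen, had 85 and 222 counts against 0 and 8. Each of these 5 was called higher in muscle (edgeR adjusted p of 0.00942 or less), and of the 5 only Ms4a3 was called with the 6 chow libraries. Ms4a3, Igll1, Ibsp and Col2a1 had no count in VAT or in SAT of mice on the high-fat diet. The part of such cells in the other muscle differences was not tested.

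**Figure D2:**
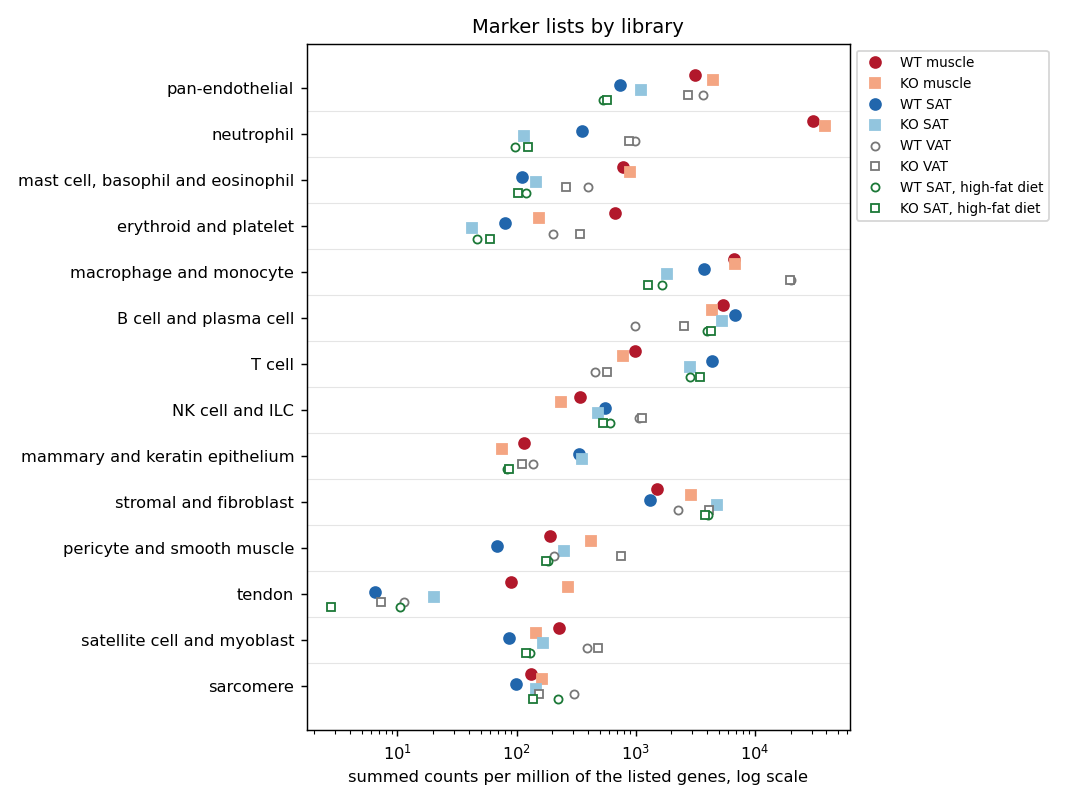
Summed CPM (log scale, on library totals) of 14 marker lists in the 8 libraries, with circles for WT and squares for KO, filled for the 4 libraries compared and open for VAT and for SAT on the high-fat diet. Neutrophil genes reach 30600 and 39000 CPM in the muscle libraries, while T cell genes are highest in the SAT libraries.

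Macrophage genes as a list did not differ in this way. Of 18 tested 1 rose, Lyz2, and none fell, with medians of -0.59 in WT and -0.116 in KO. Lyz2, a lysozyme that neutrophils make as well, was at 4700 and 4900 CPM in muscle and 1200 and 406 CPM in SAT (log2 fold change 2.78, SE 0.737, edgeR adjusted p = 0.0059). In WT and KO VAT Lyz2 was at 5360 and 5290 CPM (scaled over all 8 libraries), and its cell source was not tested. Cell cycle genes were higher in muscle, with 12 of 20 called and none lower, and with medians of 0.941 in WT and 2.96 in KO. In both genotypes 10 were at least 2-fold higher. The called Cdc20 and Plk1 were not, with log2 ratios of 0.62 and 0.88 in WT and 3.23 and 3.61 in KO. Mki67 was at 248 and 508 CPM in WT and KO muscle and 63.3 and 66.7 CPM in SAT, and Top2a, a topoisomerase of dividing cells, at 300 and 390 CPM against 90.7 and 50.6 CPM. Only Mki67 was called with the 6 chow libraries. Of the 22 senescence and SASP genes 3 rose and 1 fell. The 3 that rose were Mmp9 (920 and 922 CPM in muscle, 46.2 and 19 CPM in SAT), Il1b (533 and 362 CPM against 49.3 and 106 CPM) and Cxcl2 (323 and 329 CPM against 11.9 and 84.9 CPM). Neutrophils are among the cells that make them. In WT and KO VAT (scaled over all 8 libraries) Mmp9 was at 507 and 515 CPM, Il1b at 533 and 511 CPM and Cxcl2 at 1430 and 1890 CPM. Which cells made them was not tested. Mmp3, a stromal metalloproteinase, fell (1.26 and 4.35 CPM in muscle, 14.3 and 34.4 CPM in SAT).

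Genes of cells resident in muscle were higher in part. Pax7, the transcription factor of satellite cells, had 283 counts in WT muscle and 16 in KO muscle, against 20 in WT SAT and 0 in KO SAT (log2 fold change 4.42, SE 1.16, edgeR adjusted p = 0.0042). It was the 1 member called of 11 satellite cell and myoblast genes, KO muscle and WT SAT were both at 1.16 CPM, and it was not called with the 6 chow libraries (adjusted p = 0.1). Sarcomere genes, which make up the contractile fibre, were not called in either direction among 17 tested, by edgeR or by DESeq2, and 2 had an unadjusted p under 0.05. Of 12 regulators of muscle and fibre type none was called by edgeR and 1 by DESeq2, with 2 at an unadjusted p under 0.05. Acta1, skeletal alpha-actin, was at 11.1 and 3.77 CPM in WT and KO muscle and 14.5 and 2.43 CPM in WT and KO SAT. Ttn, titin, was at 9.82 and 10.9 CPM in muscle and 2.74 and 23.1 CPM in SAT, so the groups overlapped for both. Of the tendon genes 2 of 6 were called and 5 were at least 2-fold higher in both genotypes. Fmod, fibromodulin, was at 16.2 and 110 CPM in muscle and 1.11 and 4.16 CPM in SAT (log2 fold change 4.32, SE 0.646, edgeR adjusted p = 4.9e-09), and Thbs4, a thrombospondin of tendon, at 66.6 and 123 CPM against 2.21 and 8.1 CPM.

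Hox genes, which mark position along the body axis, were higher in muscle in 11 of 22 tested by at least 2-fold in both genotypes and in none lower, against 9.86% of all genes higher by that rule. The medians were 1.53 in WT and 1.25 in KO. The list summed to 69 and 103 CPM in WT and KO muscle, 21.4 and 47.5 CPM in SAT and 78.3 and 87.9 CPM in VAT. The muscle and VAT libraries thus lay close, with SAT on chow lower. Hoxa9 was at 5.81 and 9 CPM in WT and KO muscle and 0.175 and 0.81 CPM in SAT (log2 fold change 4.14, SE 1.16, edgeR adjusted p = 0.0097), and Hoxb6 at 9.22 and 9.58 CPM against 0.64 and 1.74 CPM. These 2 were the only members called, and neither was called with the 6 chow libraries. Of 10 limb and body-wall patterning factors none was called by edgeR or DESeq2, with 2 at an unadjusted p under 0.05.

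**Figure D3:**
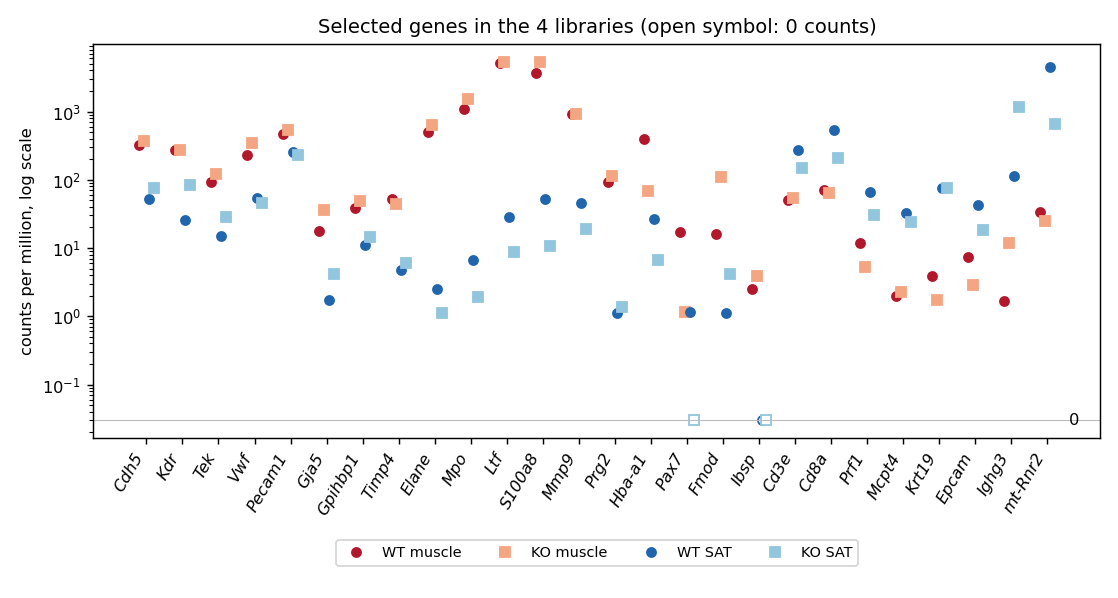
CPM (log scale, scaled by TMM over the 4 libraries) of 26 genes in the WT and KO muscle (dark and light red) and SAT (dark and light blue) libraries, 1 point a library and open points for 0 counts. EC and neutrophil genes on the left are above SAT in both muscle libraries, and T cell, epithelial and rRNA genes on the right are below.

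T cell genes were higher in SAT. Of 12 T cell genes tested, 8 fell in muscle relative to SAT, none rose, and 11 were at least 2-fold lower in both genotypes, with medians of -2.49 in WT and -1.69 in KO. The list summed to 990 and 783 CPM in WT and KO muscle and to 4350 and 2880 CPM in WT and KO SAT. Cd3e, of the T cell receptor complex, was at 50 and 53.8 CPM in muscle and 270 and 147 CPM in SAT (log2 fold change -1.94, SE 0.593, edgeR adjusted p = 0.026). The coreceptor Cd8a was at 71.6 and 63.4 CPM in muscle and 535 and 210 CPM in SAT, and Cd8b1 at 44.1 and 32.2 CPM against 539 and 129 CPM. The kinase Lck was at 107 and 70 CPM in muscle and 742 and 278 CPM in SAT. Foxp3, the factor of regulatory T cells picked after its values were seen, had 211 and 53 counts in muscle and 932 and 548 in SAT. In each case the SAT libraries were above both muscle libraries. None of the 8 was called with the 6 chow libraries, in which VAT summed to 452 and 573 CPM for the list.

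Of 12 NK cell and ILC genes 2 fell and none rose: Prf1, perforin (12 and 5.23 CPM in WT and KO muscle, 67 and 30.2 CPM in SAT) and Eomes, its regulator (18.1 and 9.07 CPM against 53.9 and 45.5 CPM). Of 10 dendritic cell genes 1 fell, Xcr1, a receptor of cross-presenting dendritic cells. Of 20 chemokines 3 rose (Ccl3, Cxcl2 and Cxcl12) and 1 fell. The one that fell, Ccl22, a chemokine that draws regulatory T cells, was at 8.92 and 7.98 CPM in muscle and 56.5 and 38.9 CPM in SAT (log2 fold change -2.47, SE 0.591, edgeR adjusted p = 0.0014). MHC class II genes had medians of -0.821 in WT and -0.984 in KO, with none of 10 called by edgeR or DESeq2 and 2 at an unadjusted p under 0.05. In the list of mast cell, basophil and eosinophil genes 3 of 10 rose (Hdc, Prg2 and Epx) and 2 fell, the mast cell proteases Mcpt4 and Tpsb2. Mcpt4 was at 1.98 and 2.25 CPM in muscle and 32.1 and 24.3 CPM in SAT, and Tpsb2, a tryptase, at 2.64 and 0.581 CPM against 18.7 and 16.5 CPM. Another protease of mast cells, Cpa3, was not called, at 17.6 and 19.2 CPM in muscle and 22.8 and 17.1 CPM in SAT (log2 fold change -0.11, SE 0.606, edgeR adjusted p = 0.996). Nor was Kit, the receptor that marks mast cells, at 43.6 and 49.7 CPM in muscle and 33.9 and 37.8 CPM in SAT.

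Immunoglobulin constant regions did not move together. Ighg3 was at 1.68 and 11.7 CPM in WT and KO muscle and at 112 and 1170 CPM in WT and KO SAT (log2 fold change -6.36, SE 0.787, edgeR adjusted p = 2.9e-13). Ighg1 was at 1150 and 309 CPM in muscle and 51.1 and 20.4 CPM in SAT (log2 fold change 4.21, SE 0.711, edgeR adjusted p = 5.1e-07). Each of these 2 isotypes was separated by tissue and also differed severalfold between the genotypes of a tissue. The B cell and plasma cell list had 2 of 15 called higher (Ighg1 and Igha) and none lower. Its medians were -0.913 in WT and -0.432 in KO. Igha was at least 2-fold higher in the KO pair only, with log2 ratios of 0.82 in WT and 3.39 in KO. By at least 2-fold in both genotypes, 1 member of the list was higher and 2 were lower. Neither Ighg1 nor Igha was called with the 6 chow libraries (edgeR adjusted p = 0.307 and 0.608), while Ighg3 was.

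Epithelial genes were higher in SAT. Of 11 mammary and keratin genes tested 6 fell in muscle, none rose, and 10 were at least 2-fold lower in both genotypes, with medians of -2.67 in WT and -3.96 in KO, and 4 were called lower with the 6 chow libraries. The list summed to 115 and 75.8 CPM in muscle and to 336 and 353 CPM in SAT, against 83.2 and 86.2 CPM in SAT of WT and KO mice on the high-fat diet. Krt19, a keratin of simple epithelium, was at 3.95 and 1.74 CPM in muscle and 74.5 and 74.9 CPM in SAT (log2 fold change -4.80, SE 0.641, edgeR adjusted p = 2.6e-11). Krt18 and Krt8, which pair in such cells, were at 9.28 and 5.01 CPM and at 9.52 and 3.05 CPM in muscle, against 90.9 and 53.6 CPM and 60.8 and 78.1 CPM in SAT. Csn3, kappa-casein of milk, had 13 and 0 counts in muscle and 345 and 104 in SAT. Genes with the largest falls were of the same kind in part: Aqp5, a water channel of glands, had 3 and 0 counts in muscle and 242 and 109 in SAT, Elf3, an epithelial transcription factor, had 3 and 0 counts against 132 and 74, and Wfdc2, a secreted protein of ducts, was at 0.419 and 0.29 CPM against 12 and 10.5 CPM. Irx1 had no count in muscle and 209 and 41 counts in SAT, which is at least 67.7-fold higher in WT and 10.9-fold in KO. Rasgrf1, a Ras exchange factor, was at 0 and 0.218 CPM in muscle and 2.21 and 11.2 CPM in SAT. Prlr, the prolactin receptor, picked after its values were seen, had 51 and 24 counts in muscle and 565 and 1023 in SAT. The part of epithelial cells in the other SAT differences was not tested.

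Ribosomal RNA made up another part of the fall. The mitochondrial mt-Rnr1 was at 6.53 and 2.83 CPM in WT and KO muscle and 2420 and 280 CPM in WT and KO SAT (log2 fold change -7.60, SE 0.873, edgeR adjusted p = 2.3e-15), and mt-Rnr2 at 34 and 25 CPM against 4430 and 667 CPM. Together they were 0.6245% of counts in WT SAT and 0.1017% in KO SAT, against 0.003891% in WT muscle and 0.002967% in KO muscle. On the high-fat diet they were 0.003186% in WT SAT and 0.1843% in KO SAT. Lars2, a mitochondrial leucyl-tRNA synthetase, was at 65.2 and 49.3 CPM in muscle and 2230 and 1250 CPM in SAT. Gm23935, annotated as a miRNA of 57 bases and picked after its values were seen, had 691 and 392 counts in muscle and 179042 and 90223 in SAT. On the high-fat diet, WT SAT held 1672 of its counts and KO SAT 78364. The mitochondrially encoded proteins did not follow: none of 12 was called, and mt-Co1 was at 14200 and 9360 CPM in muscle and 17800 and 9070 CPM in SAT. The part of RNA or library quality in these values was not tested.

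Lists with few or no called genes include those of metabolism. A gene that was not called may still differ between the tissues by less than the test could call. Of 22 glycolysis genes 1 was called higher, against 4.04% of all genes tested. It was Slc16a3, the lactate exporter, at 300 and 231 CPM in WT and KO muscle and 11.5 and 24.3 CPM in SAT. Its log2 fold change was 3.97 (SE 0.654, edgeR adjusted p = 2.2e-07). The glycolysis list summed to 5520 and 5090 CPM in WT and KO muscle and to 4330 and 2850 CPM in SAT. None of 25 nuclear OXPHOS genes was called. Only 1 of the 25 had a ratio above 0 in WT and all 25 did in KO, with medians of -0.779 and 0.387. None of 17 TCA cycle and fatty acid oxidation genes, none of 16 circadian genes, none of 18 immediate early genes and none of 13 telomerase and shelterin genes was called. The 33 cytosolic ribosomal protein genes had ratios below 0 in both genotypes, with medians of -1.39 in WT and -0.286 in KO, and none was called. In these 6 lists, and in that of mitochondrially encoded proteins, DESeq2 called 0 genes as well and 0 had an unadjusted p under 0.05. Of 15 interferon-stimulated genes none was called by edgeR and 1 by DESeq2, with 3 at an unadjusted p under 0.05. Of 16 heat shock genes 3 rose and none fell: Hspa1a (959 and 1490 CPM in muscle, 253 and 211 CPM in SAT), Hspa1b and Hspb1 (168 and 203 CPM against 30.3 and 33.1 CPM). Only Hspb1 was called with the 6 chow libraries. In WT and KO SAT on the high-fat diet (scaled over all 8 libraries) Hspa1a was at 1470 and 1680 CPM, Hspa1b at 3050 and 3580 CPM and Hspb1 at 42.1 and 22 CPM. In the hypoxia list Epas1, the HIF2 subunit of EC, and Vegfa rose and Pdk1, a pyruvate dehydrogenase kinase, fell. Vegfa was close in the KO pair and apart in the WT pair, at 97.1 and 97.2 CPM in WT and KO muscle and 7.04 and 66.4 CPM in WT and KO SAT.

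Genes of the extracellular matrix were split by genotype. The 20 collagen chains had a median of 1.19 in the WT pair and -0.821 in the KO pair, with Col4a2 and Col8a1 called higher, and neither with the 6 chow libraries. Col4a2, of the basement membrane, was at 222 and 293 CPM in WT and KO muscle and 22.9 and 142 CPM in WT and KO SAT (log2 fold change 2.16, SE 0.64, edgeR adjusted p = 0.02). The fibroblast collagen Col1a1 was at 107 and 264 CPM in muscle and 93.6 and 634 CPM in SAT. Of 14 basement membrane genes 1 rose, the laminin chain Lama5, and none fell. None of 14 stromal genes was called by edgeR or DESeq2, and 1 had an unadjusted p under 0.05. The list summed to 1500 and 2900 CPM in muscle and to 1320 and 4840 CPM in SAT, so that KO was the higher library in each tissue. Of 12 pericyte and smooth muscle genes 2 were called, Rgs5 and Cspg4. Cspg4 was at 4.55 and 13.6 CPM in WT and KO muscle and 0 and 4.97 CPM in SAT, so the tissues overlapped. Neither Rgs5 nor Cspg4 was called with the 6 chow libraries. Of 6 adipocyte genes tested 1 rose, the fatty acid ligase Acsl1, which is not confined to adipocytes. The defining markers were near the floor: Adipoq had 0 to 6 counts and Plin1 0 to 5 in the 4 libraries, and Lep had none.

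**Figure D4:**
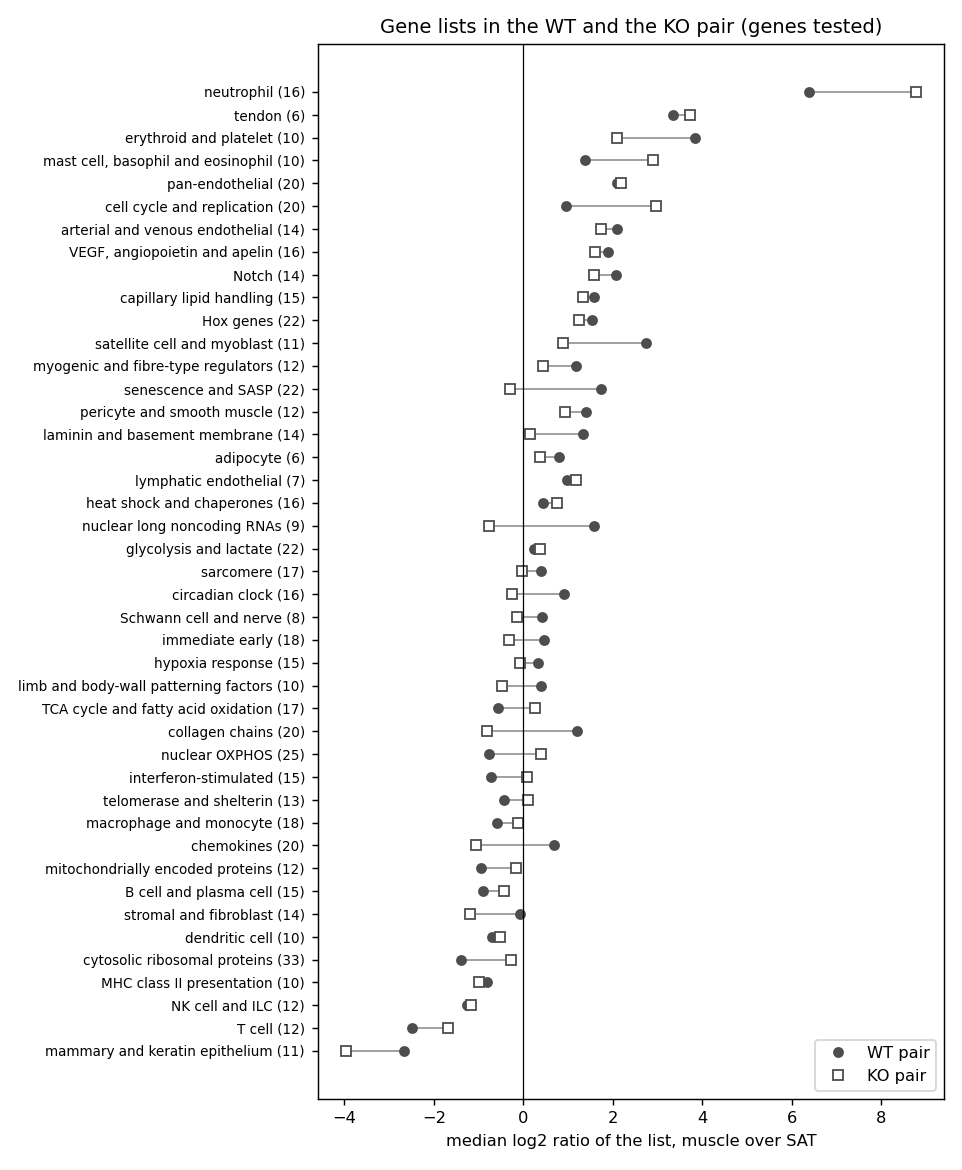
Median log2 ratio of muscle over SAT for each of 43 gene lists in the WT pair (filled circle) and the KO pair (open square), ordered by the median of the fitted changes, with the number of genes tested in brackets. Neutrophil, tendon and EC lists are on the right in both pairs and T cell and epithelial lists on the left, while collagens, chemokines and nuclear noncoding RNAs lie on opposite sides of 0.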

How the data were processed

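mG+ (GFP+) cells were sorted by FACS from muscle and SAT, and RNA libraries were made with the SMARTER kit, per the labels. The authors deposited read counts per Ensembl gene, as whole numbers with no normalization, and the submitters' processing notes name HISAT2 2.0.5 and GRCm38 (mm10). The counting tool, its handling of shared reads and strand are not given in the sources used here, so overlapping and near-identical genes are uncertain.

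The 4 chow libraries of muscle and SAT were fitted with edgeR 4.0.16 in R 4.3.3: TMM scaling, a filter at 10 counts per gene on average, tissue plus genotype, robust quasi-likelihood test, Benjamini-Hochberg adjustment. The prior degrees of freedom came out infinite. Ratios within a genotype used a prior count of 0.5. A fold against 0 counts used 3 counts as the floor, per library. DESeq2 1.42.0, other scalings, filters and sets of libraries were alternatives.

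Genes named were the 10 largest smaller-of-both ratios each way among called genes averaging 50 counts or more and with a symbol that is not a Gm number or Rik name, the called and highest members of each list, and Tert; others are marked. Members and lists were chosen with earlier results of these data known. Nothing says that libraries came from separate mice, so p-values cannot be read as measuring the spread between mice. The spread behind them is the trend of genes at a like level. With a fit of tissue plus genotype, that spread includes any genotype difference that the tissues did not share. RefSeq promoters were taken as the first entry of a symbol.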

Additional observations from a re-analysis of the deposited data

Results flagged for a closer look

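The median log2 ratio of muscle over SAT was of opposite sign in the WT and the KO pair, and at least 0.5 in size in both, for 3 lists. Further lists had medians of opposite sign that were smaller than this in 1 or both pairs. It was 1.19 in WT and -0.82 in KO for collagen chains, 0.69 and -1.06 for chemokines, and 1.58 and -0.76 for nuclear long noncoding RNAs. Malat1, one of the noncoding RNAs, had a log2 ratio of 2.92 in WT and -1.13 in KO: it was at 2120 and 2560 CPM in WT and KO muscle, and at 281 and 5600 CPM in WT and KO SAT. Ttn had a log2 ratio of 1.83 in WT and -1.08 in KO. Each pair is 1 library against 1, so none of these differences between genotypes was tested.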

How the results depend on the processing

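The calls depended on which libraries gave the spread. With all 6 chow libraries 255 genes were called higher and 35 lower (255 and 34 of them called in the 4 libraries too), with all 8 libraries 187 and 28, and without the block 133 and 9. Leaving out 1 library, without the block and with the lone library taken to vary like the other tissue, gave 154 to 3529 genes higher and 13 to 2323 lower: 3529 and 2323 without KO SAT, 1262 and 569 without WT SAT, 154 and 13 without KO muscle, and 166 and 20 without WT muscle. Counts under the other scalings, filters and DESeq2 stayed within 1.5 times of the 692 and 137. Genes that agree in both genotypes numbered 2766 higher and 1527 lower with every gene that had a count, 410 lower when genes had to average 50 counts, and 600 and 237 at 4-fold. Of 119 genes named, 61 lost their call with the 6 chow libraries, 75 with all 8, 78 without the block and 10 with upper quartile scaling. Of the 43 list medians, none moved by more than the SD of the WT and KO medians with DESeq2 size factors or library totals, and 3 did with upper quartile scaling. Named genes that changed sign were ones not called in the 4 libraries: Acta1 (-0.19 without the block), Malat1 (-0.33 without the block, -0.07 with 8 libraries), and Ttn (-0.18 with 6, -0.44 with 8 libraries, -0.32 without the block), and with 1 library left out Acta1 (-1.16 to 1.61), Col1a1 (-1.78 to 0.99), Cpa3 (-0.31 to 0.10), Malat1 (-1.26 to 3.06), Tert (-2.19 to 0.61), Ttn (-1.16 to 1.92) and mt-Co1 (-0.60 to 0.37). The cause was not tested. At these depths a count of 0 allows up to 3 counts.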
